A study of Rattus norvegicus with 12 samples.

Results

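The genes described are the 5 dopamine receptors Drd1 to Drd5, the dopamine transporter Slc6a3, the monoamine oxidases Maoa and Maob, and Ppp1r1b, which encodes DARPP-32. They were taken by name and found by their Entrez number, and all 9 have a probe set among the 9962 genes measured. Each array was hybridised with whole-hippocampus RNA of 1 adult male from generation 4 of a selective breeding programme for exploratory movement in a new place. The lines are bHR, bred as High Responders with strong locomotion, and bLR, bred as Low Responders with weak locomotion. The rats were 102 to 107 days old per the sample labels and had been scored for locomotion at 50 to 75 days, and the labels name no treatment. Of 6 arrays in each line the submitters marked bHR replicate 1 and bLR replicate 5 as failed. This left 5 arrays of each line, and values below are log2 expression on those 10 arrays unless stated otherwise.

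Dopamine acts through 2 receptor families. The D1 type (Drd1, Drd5) couples to stimulatory G proteins and raises cyclic AMP, and the D2 type (Drd2, Drd3, Drd4) couples to inhibitory G proteins and lowers it. DARPP-32, once phosphorylated by the cyclic AMP-dependent kinase, inhibits protein phosphatase 1. Slc6a3 returns dopamine to the neurons that released it. Its mRNA is made in the midbrain cell bodies whose axons reach the hippocampus. Maoa and Maob sit in the outer mitochondrial membrane and oxidise monoamines. Maoa prefers serotonin and noradrenaline, Maob prefers phenylethylamine, and both oxidise dopamine. In the brain Maob is known from astrocytes and serotonin neurons.

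Only 3 of the 9 genes gave a signal above that of genes that belong to other organs. The list of such genes (insulin, albumin, milk and sperm proteins and the like) held 32 measured genes, whose means over the 10 arrays lay between 4.20 and 5.42. Maoa, at 7.77, had a higher mean than 89.7% of all genes. Maob, at 7.56, exceeded 87.7% of genes, and Ppp1r1b, at 6.00, exceeded 62.5%. These lay above the highest gene of other organs, Umod, a kidney protein, by 2.36, 2.15 and 0.58.

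The 5 receptors and the transporter all lay inside the range of the genes of other organs. Their places among all genes were 10.9% (Drd3), 19.5% (Drd4), 20.1% (Drd1), 36.3% (Drd2), 37.0% (Slc6a3) and 39.8% (Drd5), given as the share of genes with a lower mean. Of the 32 genes of other organs, 18 had a higher mean than Drd3, 12 than Drd4, 11 than Drd1 and 4 each than Drd2, Drd5 and Slc6a3. Probes bind with different strength, so these values set no order of abundance between genes. A low value does not show absence either: Camk2a, a kinase abundant in hippocampal excitatory neurons, exceeded only 39.7% of genes here. A difference in these 6 genes may therefore not have been detectable at this signal.

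**Figure D1:**
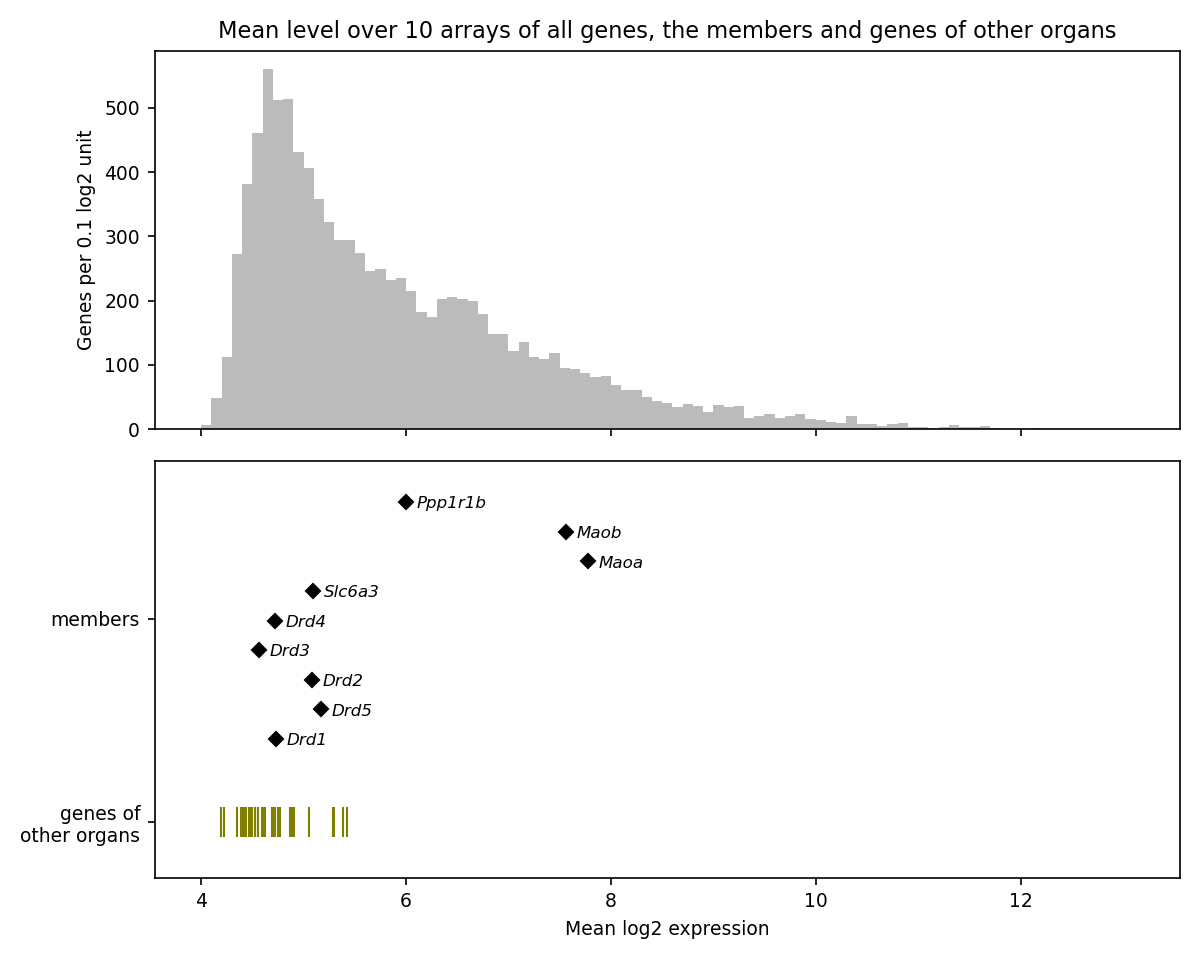
Mean log2 expression over the 10 passing arrays. The upper panel counts all 9962 genes per bin, and the lower panel shows the 9 genes (diamonds, spread vertically only for legibility) above the 32 measured genes of other organs (ticks); only Ppp1r1b, Maob and Maoa lie to the right of the ticks.

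Markers were read beside these values. Among genes of hippocampal excitatory neurons, 13 of 19 were measured, at 1.1% (Spink8) to 99.9% (Nrgn) of all genes with a median of 76.7%. Prox1, a transcription factor of dentate granule cells, exceeded 85.0% of genes, Wfs1, a marker of the CA1 field, 83.2%, Neurod2, a neuronal transcription factor, 69.8% and Camk2a 39.7%. All 14 markers of striatal projection neurons were measured, a list that shares Drd1, Drd2 and Ppp1r1b with the genes described. Its mean level ran from 5.40 to 5.51 on the bHR arrays and from 5.38 to 5.46 on the bLR arrays. Of the dopamine neuron markers 10 of 12 were measured, with mean levels of 4.96 to 5.05 on bHR and 4.99 to 5.10 on bLR arrays. There Th, the first enzyme of dopamine synthesis, exceeded 45.7% of genes and Slc18a2, the vesicular transporter, 27.2%. Ddc, another gene of monoamine synthesis, exceeded 53.3%, with means of 5.65 in bHR and 5.59 in bLR, above the 5.42 of Umod. The measured dopamine neuron markers ran from 8.70% to 54.2% (Aldh1a1) of all genes, with a median of 32.1%. The scale has no zero, so no marker can be called absent. In tissue pieces, fewer cells of a type and less RNA per cell cannot be told apart.

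Loss of 5' signal differed between arrays, and its source was not tested. The 5' minus 3' value of the beta-actin control ran from -2.30 to -1.39 on bHR arrays and from -3.65 to -1.36 on bLR arrays. It was lowest on bLR replicates 3 and 2 and bHR replicate 6. The value of dap, a bacterial control RNA, was lowest on the same arrays, at -1.82, -1.54 and -1.36. The choroid plexus markers, of which 12 of 16 were measured, had mean levels of 5.40 to 6.05 on bHR and 5.21 to 5.80 on bLR arrays. All 12 had a higher mean in bHR, with a median difference of 0.12 and 1.91 for Ttr; 2 had an unadjusted limma p under 0.05 and 0 passed after adjustment. Their part in the counts of genes higher in bHR given below was not tested beyond the fit with Ttr as a term, where 5 of the 9 genes were higher. Ttr, which encodes the carrier protein transthyretin, ran from 6.17 to 11.06 on bHR and from 5.34 to 10.16 on bLR arrays. The endothelial and pericyte markers, 14 of 16 measured, ran from 5.28 to 5.37 on bHR and from 5.27 to 5.35 on bLR arrays. Within lines, their mean had an r of 0.831 with the beta-actin value, and the mean of the striatal markers 0.723. That r was 0.413 for the excitatory neuron markers, 0.156 for the dopamine neuron markers and 0.0544 for the choroid plexus markers.

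The first comparison asked whether these genes differ between the lines. None did so beyond the spread between rats. The limma adjusted p over all genes was 0.992 for each of the 9, and 0 of 9962 genes (0%) passed at 0.05. Without adjustment, 0 of the 9 had a limma p under 0.05, where 2.94% of all genes had. The lines overlapped for all 9, and failed to overlap for 0.291% of all genes. All 9 of the 95% intervals excluded a 2-fold difference in array signal, as did those of 99.7% of all genes. The receptors and the transporter lay inside the signal range of genes of other organs. For them the interval sets no bound on the difference in mRNA. The mean was higher in bHR for 6 of the 9, against 50.4% of all genes, with a median difference of 0.025 against 0.00078 over all genes. That share was 68.8% among the 32 genes of other organs, of which 22 were higher and whose median difference was 0.027.

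Drd1, the main D1-type receptor, read 4.83, 4.74, 4.70, 4.77 and 4.66 on bHR replicates 2 to 6. It read 4.71, 4.66, 4.66 and 4.74 on bLR replicates 1 to 4 and 4.79 on bLR replicate 6. bHR replicate 2 was highest and the lines covered nearly the same range. The difference was 0.027 (SE 0.044, limma unadjusted p = 0.551), and 0.0044 without bHR replicate 2.

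Drd5, the other D1-type receptor, read 5.25, 5.15, 5.28, 5.14 and 5.13 in bHR, against 5.19, 5.07, 5.09, 5.35 and 5.04 in bLR. The highest value belonged to bLR replicate 4, while 3 of the other 4 bLR values lay below every bHR value. The difference was 0.042 (SE 0.062, limma unadjusted p = 0.511), and 0.092 without bLR replicate 4.

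Among D2-type receptors, Drd2, which is also the autoreceptor of dopamine neurons, read 4.99, 5.03, 5.11, 5.28 and 5.06 in bHR, against 5.05, 5.13, 5.02, 5.09 and 5.04 in bLR. bHR replicate 5 stood above the rest, and the bLR arrays were closer together. The SD was 0.11 in bHR and 0.042 in bLR (n = 5 each). The difference was 0.025 (SE 0.055, limma unadjusted p = 0.659), and -0.022 without bHR replicate 5.

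Drd3, known mainly from the limbic striatum, read 4.65, 4.51, 4.57, 4.54 and 4.56 in bHR, against 4.57, 4.63, 4.59, 4.53 and 4.47 in bLR, a difference of 0.0096 (SE 0.043). Its sign turned without bLR replicate 6, to -0.013, and without bHR replicate 2, to -0.012. Drd4 read 4.83, 4.75, 4.76, 4.73 and 4.61 in bHR, against 4.81, 4.62, 4.66, 4.74 and 4.67 in bLR, a difference of 0.037 (SE 0.052). It was 0.069 without bHR replicate 6 and 0.012 without bHR replicate 2. Both D2-type genes spanned about the same range in the lines.

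Slc6a3 read 4.93, 5.14, 5.03, 5.15 and 5.13 in bHR, against 5.17, 5.20, 5.02, 5.06 and 5.11 in bLR. A single low value, bHR replicate 2, carried the difference of -0.037 (SE 0.054, limma unadjusted p = 0.511). Without that array it was -0.00072.

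For Maoa the arrays gave 7.73, 7.89, 7.71, 7.58 and 7.92 in bHR, against 7.45, 7.97, 7.91, 7.77 and 7.80 in bLR. bLR replicate 1 was lowest of the 10, and the other bLR arrays lay within or just above the bHR range. Means were 7.77 ± 0.14 in bHR and 7.78 ± 0.20 in bLR (n = 5 per line, SD), a difference of -0.014 (SE 0.097, limma unadjusted p = 0.888; 95% interval -0.23 to 0.20). Without bLR replicate 1 it was -0.095, and without bLR replicate 2 it was 0.033.

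Maob, which lies next to Maoa on the X chromosome in the RefSeq gene table, gave 7.56, 7.71, 7.46, 7.65 and 7.58 in bHR, against 7.51, 7.61, 7.45, 7.45 and 7.65 in bLR. It averaged 7.59 ± 0.095 in bHR and 7.54 ± 0.093 in bLR (n = 5 per line, SD). The difference of 0.056 (SE 0.059, limma unadjusted p = 0.361) had a 95% interval from -0.073 to 0.18. With single arrays left out it was lowest, 0.026, without bHR replicate 3 and highest, 0.089, without bHR replicate 4. The astrocyte markers, 14 of 15 measured, had mean levels of 7.97 to 8.24 on bHR and 7.95 to 8.23 on bLR arrays. Within lines their mean had an r of 0.833 with the beta-actin value. The part of these markers in the Maob values was not tested.

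Ppp1r1b read 5.73, 6.05, 5.85, 5.95 and 6.15 on bHR replicates 2 to 6, against 5.92, 6.32, 6.41, 5.85 and 5.80 in bLR. bLR replicates 2 and 3 stood above all other arrays and the remaining 3 bLR arrays lay within the bHR range. The difference was -0.11 (SE 0.13, limma unadjusted p = 0.387; 95% interval -0.39 to 0.16). Its spread within lines, an SD of 0.23, was wider than that of 94.3% of genes. Without bLR replicate 3 the difference was -0.027, with a beta-actin term in the fit 0.012, and without the 3 arrays with the deepest loss of 5' signal in dap, a bacterial control RNA, 0.038.

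**Figure D2:**
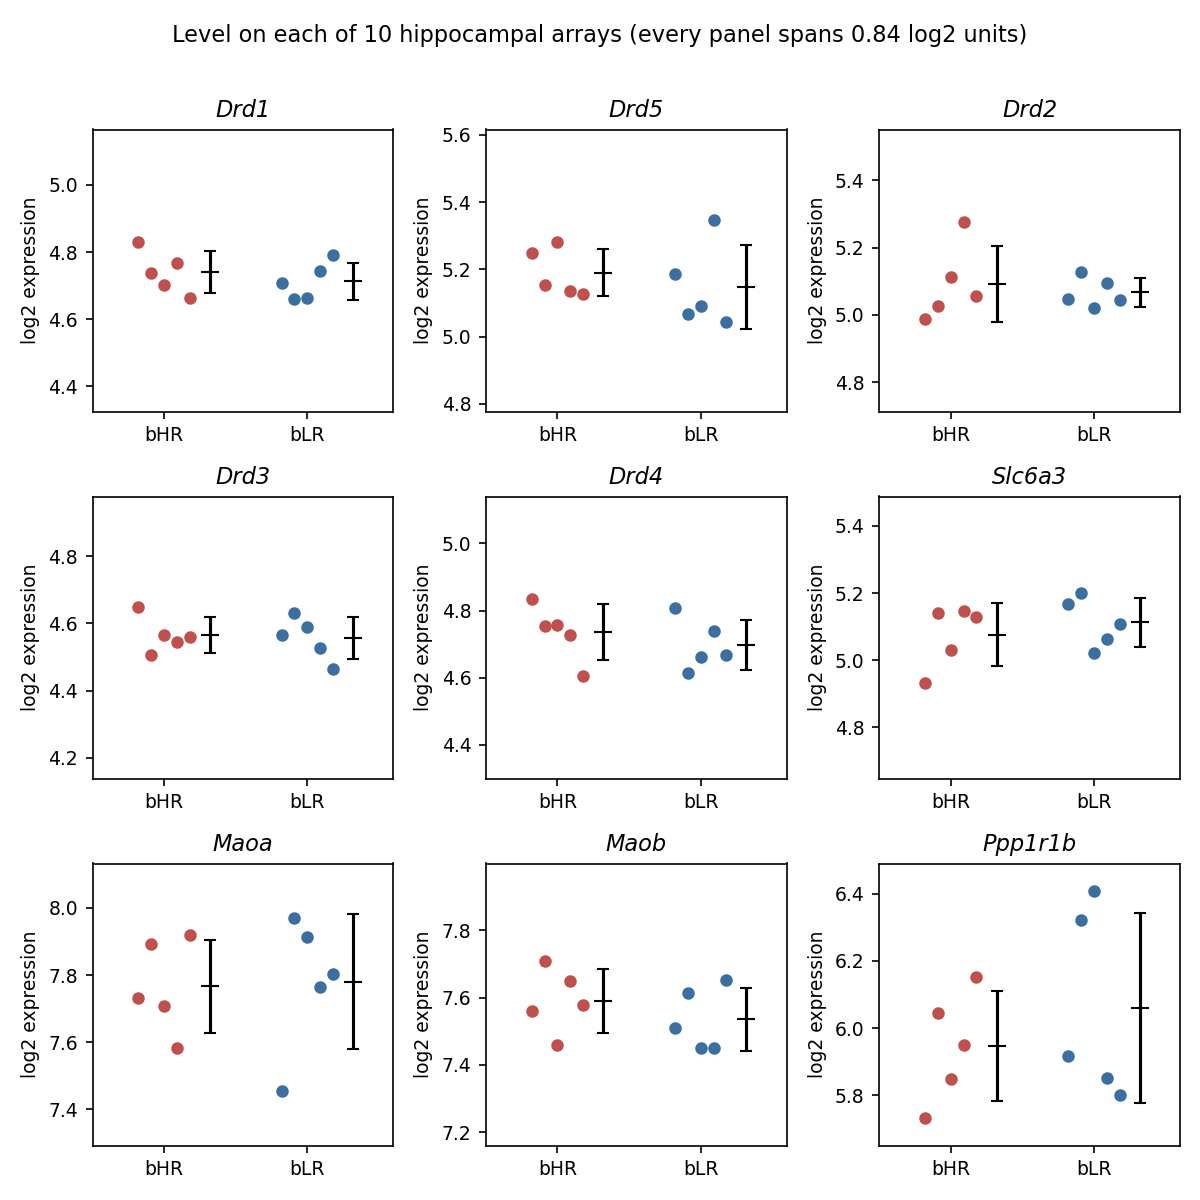
Log2 expression of the 9 genes on each passing array, bHR left and bLR right in every panel, in order of replicate, with the mean and SD of the 5 arrays beside them. All panels have the same height in log2 units. The lines overlap in every panel, and the widest spread is that of Ppp1r1b, from 5.73 to 6.41.

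**Figure D3:**
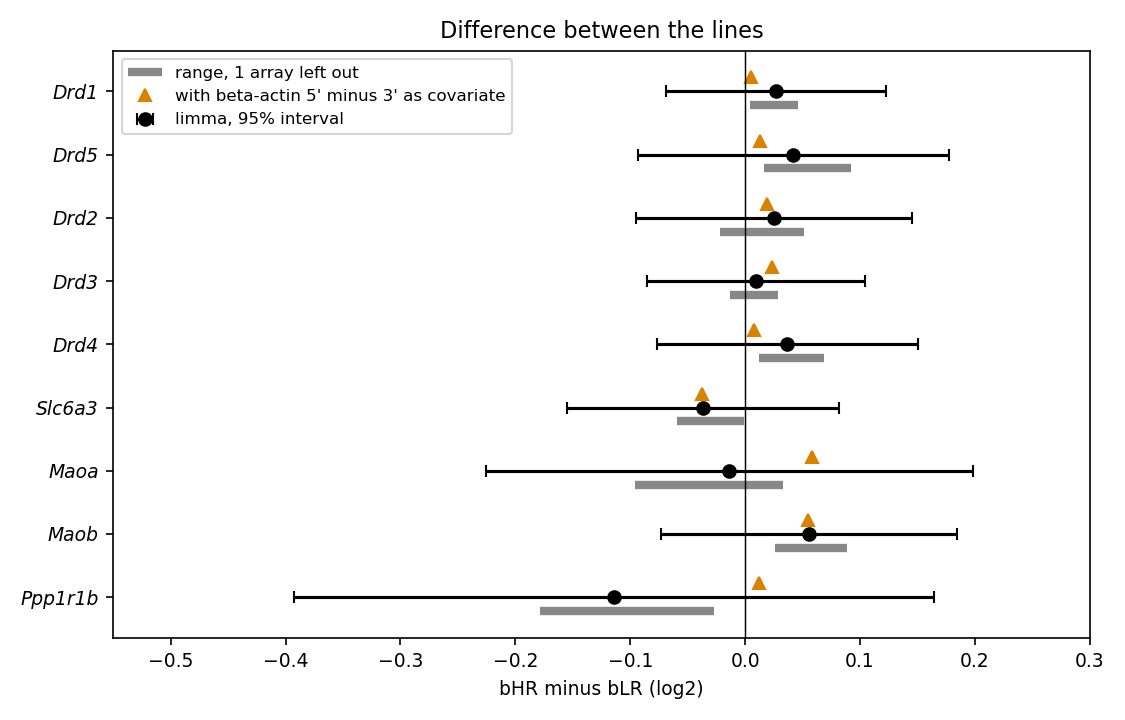
Difference between the lines, bHR minus bLR, with its 95% interval from limma (black), the range when each array is left out in turn (grey bar) and the estimate from a fit that also holds the beta-actin 5' minus 3' signal (triangle). Every interval covers 0, and the triangles of Ppp1r1b and Maoa lie on the other side of 0 from their points.

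Ppp1r1b followed the loss of 5' signal. Over the 10 arrays, with both values centred within lines, its level and the beta-actin value had a Pearson r of -0.932 (permutation p = 0.00199) and a Spearman rho of -0.879 (permutation p = 0.0098). Adjusted over the 9 relations with this measure, these p-values were 0.0179 and 0.0795. Within bHR alone r was -0.871 and within bLR -0.964. With bLR replicates 3 and 2, which lay farthest from the median, left out, r was -0.779. With the 5' minus 3' value of GAPDH in place of beta-actin r was -0.866, and with that of dap -0.932. In a limma fit over all genes the slope on the beta-actin value had an adjusted p of 0.00111, where 13.3% of all genes passed and 7.98% passed with a negative slope. With single arrays left out that adjusted p lay between 0.000809 and 0.00873, and without bLR replicates 2 and 3 and bHR replicate 6 it was 0.832 (r = -0.532, 7 arrays). The fitted slope was -0.30 (SE 0.21) without those 3 arrays, against -0.28 (SE 0.040) with them.

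Maoa ran the same way with less certainty, with an r of -0.718 (permutation p = 0.0374) and a rho of -0.733 (permutation p = 0.0177), adjusted 0.123 and 0.0795. Its r without bLR replicates 3 and 2 was -0.717, and it did not pass over all genes (limma adjusted p = 0.0613). Leaving out 1 array gave an adjusted p of 0.0429 (without bLR replicate 6) to 0.201 (without bLR replicate 1), and without the 3 arrays named above it was 0.712. The slope was then -0.54 (SE 0.24), against -0.16 (SE 0.052) on all 10 arrays. Maob showed no such relation, with an r of 0.022 (permutation p = 0.955, adjusted 0.959; r without those 2 arrays -0.350). Drd1 and Drd4 had an r of 0.617 (permutation p = 0.0545) and 0.619 (permutation p = 0.0532), each adjusted to 0.123. Their rho was 0.600 and 0.721, and without those 2 arrays r was 0.405 and 0.732.

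**Figure D4:**
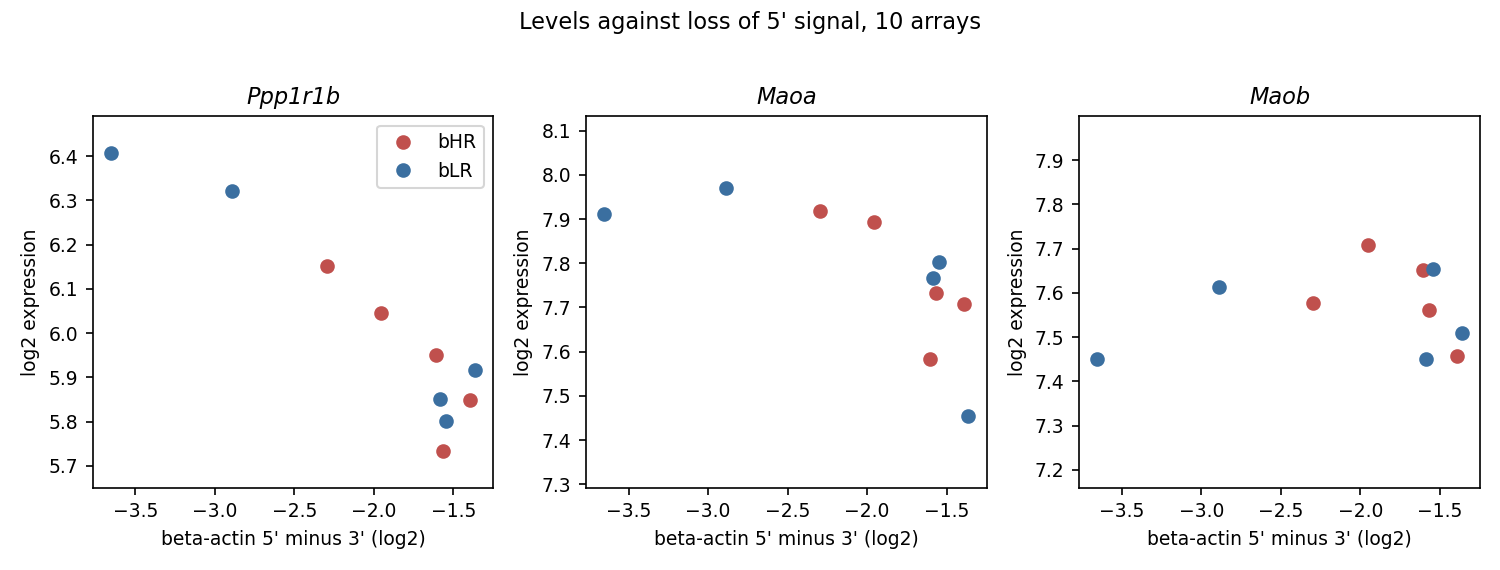
Log2 expression of Ppp1r1b, Maoa and Maob against the beta-actin 5' minus 3' log2 value (further left means more loss of 5' signal), 10 arrays, bHR and bLR in different colours. Ppp1r1b runs from 5.73 to 6.41 along this axis with bLR replicates 2 and 3 at the left end, and Maob shows no slope.

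Drd2 was compared with the choroid plexus signal in the same way. With the log2 level of Ttr its r was 0.696 (permutation p = 0.0187) and its rho 0.782 (permutation p = 0.00589), adjusted over 9 relations to 0.168 and 0.0530, so neither passed. Without bLR replicates 1 and 3 r was 0.717. In the limma fit of all genes its adjusted p was 1.00 (unadjusted 0.0459, where 2.24% of genes had a p under 0.05). With the Ttr level as a covariate, the line difference of Drd2 was -0.026 in place of 0.025. For the other 8 genes the r with Ttr lay between -0.550 (Drd4) and 0.470 (Slc6a3), with adjusted p of 0.558 or more.

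The second comparison asked whether the genes follow the locomotor score among rats of one line. Scores of the 5 rats ran from 1178 to 1328 beam breaks in bHR and from 319 to 557 in bLR. None of the 9 genes passed over all genes (smallest limma adjusted p 0.989), as did 0 of 9962 (0%). Maob was the only one with an unadjusted limma p under 0.05, 1 of 9 against 4.12% of all genes (1.68% with a positive slope). The slope was positive in both lines for 3 of the 9 (Maob, Slc6a3 and Drd2), against 16.3% of all genes. It was negative in both lines for Drd3, Drd4 (-3.4e-05 in bLR) and Drd5, a direction not counted over all genes.

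The slope of Maob was 0.078 per 100 beam breaks (SE 0.032, limma unadjusted p = 0.0350, adjusted 0.989; 95% interval 0.0066 to 0.15). In bHR the rat with the lowest score had the lowest level (7.46), but the highest level (7.71) belonged to a rat in the middle of the range. In bLR the 2 rats with the lowest scores had the 2 lowest levels (both 7.45), and the rat with the highest score had the highest (7.65). Fitted per line, the slope was 0.070 (SE 0.062) in bHR and 0.081 (SE 0.040) in bLR, and the difference of the slopes was -0.011 (limma unadjusted p = 0.890). A two-sided exact permutation of the rats within lines gave p = 0.0415 for the common slope. Leaving out 1 array gave slopes from 0.064 to 0.090. Their unadjusted limma p ran from 0.0131 (without bHR replicate 3) to 0.115 (without bLR replicate 6). That p was 0.0506 without the lowest 25% of genes and 0.774 with all 12 arrays. Once the beta-actin value was a term of the fit, the slope was 0.085, and without bLR replicates 2 and 3 and bHR replicate 6 it was 0.10.

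Slc6a3, near the signal of genes of other organs, had a slope of 0.066 (SE 0.031, limma unadjusted p = 0.0561, adjusted 0.989; two-sided exact permutation p = 0.0384). It was 0.093 (SE 0.059) in bHR and 0.055 (SE 0.038) in bLR. Drd5 had a slope of -0.067 (SE 0.037, limma unadjusted p = 0.0965, adjusted 0.989; two-sided exact permutation p = 0.145), with -0.096 in bHR and -0.056 in bLR. The common slope of Drd5 moved with single bLR arrays: it was -0.13 without bLR replicate 3 and -0.036 without bLR replicate 4. No omission of 1 array changed its sign. With the beta-actin term in the fit it was -0.094 (limma unadjusted p = 0.00723, adjusted 0.622). Without bLR replicates 2 and 3 and bHR replicate 6 it was -0.13 (limma unadjusted p = 0.00627, adjusted 0.981). With all 12 arrays it was -0.041 (limma unadjusted p = 0.667). In bHR the levels of Drd5 ran in the reverse order of the scores, with the highest level at the lowest score.

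The other 6 genes had slopes from -0.038 (Ppp1r1b) to 0.027 (Drd2), with unadjusted limma p of 0.457 or more. Ppp1r1b had the widest gap between lines, 0.17 (SE 0.15) in bHR and -0.12 (SE 0.094) in bLR, a difference of 0.29 (SE 0.17, limma unadjusted p = 0.129, adjusted 0.800). bLR replicate 3, the rat with the lowest score of all, also had the deepest loss of 5' signal, and without it the difference of the slopes was 0.14. No gene of the 9962 passed for the difference of slopes (0%), and 5.67% had an unadjusted p under 0.05, against 0 of the 9.

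**Figure D5:**
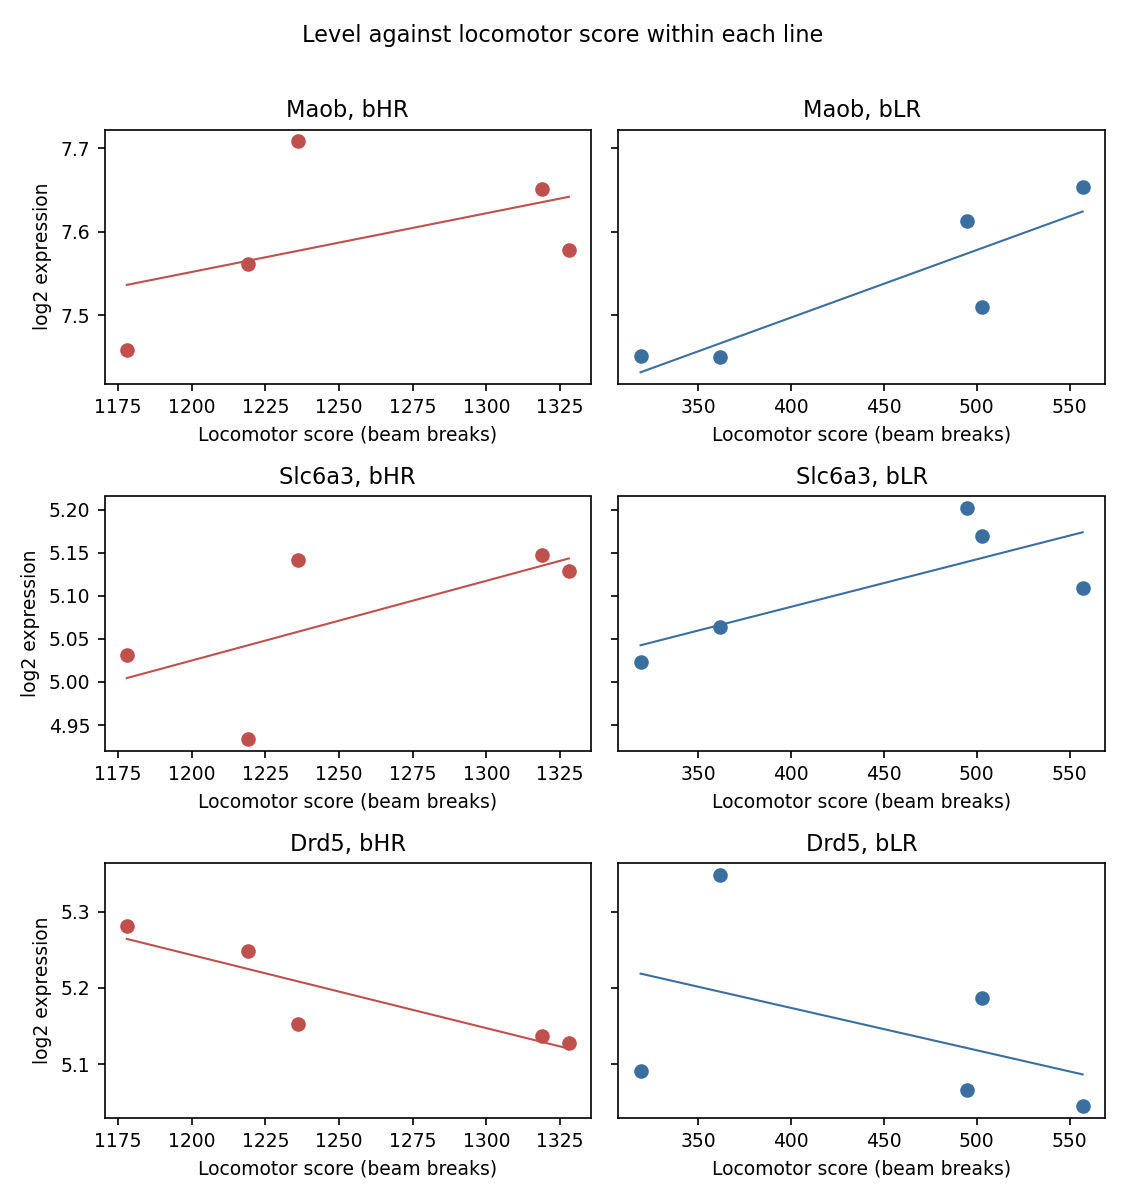
Log2 expression of Maob, Slc6a3 and Drd5 against locomotor score in beam breaks, bHR left and bLR right, 5 rats each, with the slope fitted within that line. Maob and Slc6a3 slope upward in both lines and Drd5 downward; none passed after adjustment over all genes.

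The genes were also set against each other, with values centred within lines. Of 36 pairs none passed after adjustment over the pairs (smallest adjusted permutation p 0.287 for r and 0.110 for rho). The strongest was Drd1 with Ppp1r1b, with an r of -0.801 (permutation p = 0.00797) and a rho of -0.842 (permutation p = 0.00618), and an r of -0.707 once bHR replicate 2 and bLR replicate 6 were left out. Maoa and Maob, neighbours on the X chromosome, had an r of 0.201. Drd4 with Maoa had -0.713, Drd5 with Maob -0.686 and Drd4 with Ppp1r1b -0.675. With the beta-actin value Drd1 and Drd4 had a positive r (0.617 and 0.619), and Ppp1r1b and Maoa a negative one (-0.932 and -0.718). For Drd5 and Maob that r was 0.493 and 0.022. The part of the loss of 5' signal in these pairs was not tested.

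The genes with the most similar pattern over the 10 arrays are given as a description. They were picked as the highest r among all named genes, which raises that r. For Ppp1r1b they were Lrp1, a lipoprotein receptor (r = 0.973), and Ctdnep1, a phosphatase of the nuclear envelope (r = 0.961). Both also ran with the beta-actin value, at -0.828 and -0.928. For Maoa they were Glrx3, a glutaredoxin (0.978), and Wsb2 (0.976), with an r of -0.789 and -0.723 with the beta-actin value. For Maob they were Nrdc, a metalloprotease (0.894), and Mc5r, a melanocortin receptor (0.875) that exceeded only 2.22% of genes. For Drd2 they were Cldn2, a tight junction protein of the choroid plexus list (0.931), and Mdk, a growth factor (0.930). Cldn2 and Mdk had an r of 0.803 and 0.713 with the Ttr level. Slc6a3 was most like Gp2, a pancreatic protein from the list of other organs (0.948), and Arl4a (0.919). Drd1 was most like Scamp2 (0.942) and Bid, an apoptosis regulator (0.935), whose r with the beta-actin value was 0.61 and 0.755. For Drd4 they were Prrt4 (0.964) and Ahsg, a plasma protein (0.963), with an r of 0.678 and 0.620 with the beta-actin value. For Drd3 they were Vwa8 (0.952), which exceeded only 3.07% of genes, and Tnip1 (0.932). For Drd5 they were A4galt (0.923) and Polr3a (0.921).

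Other genes of the pathway were counted by list, and 0 members of any list passed over all genes. The mean was higher in bHR for 50.4% of all genes and 68.8% of the genes of other organs. Within lines, the list mean had an r with the beta-actin value of 0.867 for the D1-type list and 0.879 for the D2-type list. That r was 0.116 for the monoamine list and 0.383 for the DARPP-32 list. Of 27 measured genes for synthesis, storage, uptake and conjugation of monoamines, 18 were higher in the bHR mean and 9 lower, with a median difference of 0.021. Aldh1a1, an aldehyde dehydrogenase that also marks a group of dopamine neurons, averaged 5.47 ± 0.30 in bHR and 5.84 ± 0.20 in bLR (n = 5 per line, SD), a difference of -0.38 (limma unadjusted p = 0.0208, adjusted 0.992). Aldh7a1, another aldehyde dehydrogenase, differed by 0.10, Dbh, which makes noradrenaline from dopamine, by 0.10 and Slc22a3, a low-affinity monoamine transporter, by 0.071.

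Of 29 measured genes of the D1-type route from stimulatory G protein to cyclic AMP, its kinase and phosphodiesterases, 22 were higher in the bHR mean and 7 lower (median 0.040). Once that beta-actin term was added, the count was 24 and the median 0.015. Pkig, an inhibitor of the cyclic AMP-dependent kinase, differed by -0.20. Prkar2a, a regulatory subunit of that kinase, differed by 0.099, Prkaca, a catalytic subunit, by 0.16 and Adcy6, an adenylyl cyclase, by 0.10.

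Of 32 measured genes of the D2-type route, 20 were higher in the bHR mean and 12 lower (median 0.027; 18 higher and a median of 0.0048 with the beta-actin covariate). Rgs14, a regulator of G protein signalling known from CA2 neurons, differed by -0.17, Rgs10 by -0.29 and Rgs7 by -0.13, and Gnai3, an inhibitory alpha subunit, by 0.14. None of these 3 regulators passed (limma unadjusted p = 0.0321, 0.0688 and 0.0827, all adjusted 0.992).

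Of 22 measured genes for kinases and phosphatases around DARPP-32, 12 were higher in the bHR mean and 10 lower (median 0.0087, -0.032 with the beta-actin covariate, and -0.016 without bHR replicate 3). Ppp1r1a, which encodes inhibitor 1, a relative of DARPP-32 that also blocks protein phosphatase 1, averaged 7.84 ± 0.070 in bHR and 8.04 ± 0.15 in bLR (n = 5 per line, SD). Its difference of -0.20 had an unadjusted limma p of 0.0143 and an adjusted p of 0.992. The calcineurin subunits Ppp3r1 and Ppp3ca, parts of the phosphatase that removes phosphate from DARPP-32, differed by -0.13 and -0.15, and the kinase Csnk1e by 0.089.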

How the data were processed

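Per the submitters' processing notes and the series' design text, the authors applied RMA (affy 1.54.0: background correction, quantile normalization, probe summary) and a custom probe definition, version 19.0.0, to make the deposited log2 values, 1 per Entrez gene. Whether the failed arrays were normalized together with the others is not given in the sources used here. Of 10019 probe sets 57 are controls, which leaves 9962 genes, 9831 of them named through RefSeq (GRCr8) and 114 unnamed. Arrays have no read depth, and 5 arrays per line limit the precision.

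limma 3.58.1 (R 4.3.3) was fitted over all genes on the 10 passing arrays, with Benjamini-Hochberg adjustment. The terms were line, then line and the score centred within line, then their interaction. Differences are bHR minus bLR, and replicates are numbered in accession order. Correlations used line-centred values and 100000 permutations within lines. The steps were tested on simulated data.

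The 9 genes and all lists were chosen with earlier results of these data known. The genes named are these 9, the 2 genes most like each, the 4 genes of smallest p in each pathway list and the first 4 measured markers of each marker list; Umod, Spink8 and Nrgn as ends of a range, and Gnai1, were chosen after their values were seen. Alternatives covered the arrays used, the filter, normalization, prior, covariates, score ranks, exact tests and a block. Exact permutation of the slopes, GAPDH and dap as measures, the count of the 9 genes under every setting, and the limma fit on the beta-actin value with its omissions of arrays were added after seeing the data, while the correlations with that value were part of the design.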

Additional observations from a re-analysis of the deposited data

How the results depend on the processing

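The number of genes past an adjusted p of 0.05 stayed at 0 for the lines, for the slopes and for the difference of the slopes under every alternative run, and none of the 9 genes passed in any of these fits. Differences between lines near 0 changed sign under some settings. With the 2 failed arrays included Maob differed by -0.11, and with all 12 arrays weighted by their quality Maoa differed by 0.022. With quantile normalization repeated Drd3 differed by -0.0015 and Maoa by 0.012. The beta-actin covariate gave 0.058 for Maoa and 0.012 for Ppp1r1b, the Ttr covariate -0.026 for Drd2, and omission of bLR replicates 2 and 3 and bHR replicate 6, whose dap value was lowest, 0.055 for Maoa and 0.038 for Ppp1r1b. Leaving out 1 array gave -0.022 to 0.051 for Drd2, -0.013 to 0.028 for Drd3 and -0.095 to 0.033 for Maoa. The count of genes with a higher mean in bHR, 6 of 9, ran from 5 to 7 without 1 array, was 4 under the replicate block, was 8 with the beta-actin covariate and also with those 3 arrays omitted, and was 3 of 6 without the lowest 25% of genes, where Drd1, Drd3 and Drd4 were no longer tested. With all 12 arrays the list medians were 0.045 for monoamine synthesis and uptake and -0.060 for the kinases and phosphatases around DARPP-32.

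For the slopes, all 12 arrays gave 0.013 for Maoa. The beta-actin covariate gave -0.0046 for Drd1, 0.012 for Maoa and 0.043 for Ppp1r1b, and omission of the same 3 arrays gave 0.025 for Ppp1r1b. Single omissions gave -0.012 to 0.023 for Drd1, -0.030 to 0.0021 for Drd3, -0.064 to 0.0057 for Maoa and -0.090 to 0.089 for Ppp1r1b. The difference of the slopes with all 12 arrays was -0.16 for Drd2 and 1.02 for Maob. Single omissions moved it from -0.11 to 0.0023 for Drd1, -0.023 to 0.15 for Drd2, -0.040 to 0.020 for Drd3, -0.091 to 0.059 for Drd5, -0.050 to 0.20 for Maoa and -0.092 to 0.044 for Maob. The cause of these changes was not tested.

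The numbers in the sample titles, of which 3 occur in both lines among the passing arrays, gave correlations of -0.334, 0.263 and 0.409 between same-numbered arrays and were not taken as pairs. As a replicate block they gave 0 genes past the threshold. Between lines, 1468 genes in place of 293 then had an unadjusted limma p under 0.05. In that fit only arrays whose number occurs in both lines inform the line difference and the slope. Among these arrays are bLR replicates 2 and 3, which had the deepest loss of 5' signal in beta-actin. The block turned the sign for Drd2 (-0.039) and Drd3 (-0.0083), left 4 of the 9 genes higher in bHR, and gave larger differences for Ppp1r1b (-0.32, limma adjusted p = 0.299), Maoa (-0.10) and Drd4 (0.11). Slopes under the block were -0.047 for Drd1, 0.11 for Maoa, 0.11 for Ppp1r1b, 0.20 for Slc6a3 (limma unadjusted p = 0.0466, adjusted 0.976) and 0.16 for Maob (limma unadjusted p = 0.0918, adjusted 0.976). Signal over background limits the receptors and the transporter, and 5 arrays per line limit all 9 genes.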

Other observations

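The 2 arrays that failed quality control, which entered none of the report's main comparisons, differed most from the passing arrays in Maob, Maoa, Drd3 and Drd4. Maob read 4.85 on bHR replicate 1, against a mean of 7.59 on the passing bHR arrays, and 5.81 on bLR replicate 5, against 7.54 on the passing bLR arrays. Maoa was lower by the same comparison, at 6.01 and 6.84, against 7.77 and 7.78. Receptors were higher there: Drd3 read 5.81 and 5.49, against 4.57 and 4.56, and Drd4 read 5.73 and 5.57, against 4.74 and 4.70. Slc6a3, at 5.07 and 4.92, and Ppp1r1b, at 5.84 and 5.76, stayed nearer to the passing means of 5.08 and 5.11 and of 5.95 and 6.06. Across genes, the Pearson r with each passing array lay between 0.664 and 0.702 for bHR replicate 1 and between 0.884 and 0.910 for bLR replicate 5.

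Gnai1, an inhibitory alpha subunit of the D2-type list, was picked once its values had been seen. It averaged 7.61 ± 0.20 in bHR and 6.95 ± 0.93 in bLR (n = 5 per line, SD), a difference of 0.66 (SE 0.36, limma unadjusted p = 0.0930, adjusted 0.992).

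The markers of serotonin and noradrenaline neurons, with 6 of 8 measured, had a higher mean in bHR for all 6, with differences from 0.0082 to 0.12 and a median of 0.060. The same direction was found for 50.4% of all genes, for 22 of the 32 genes of other organs (68.8%) and for 12 of 12 choroid plexus markers. All 6 lay inside the signal range of genes of other organs, at 20.2% to 38.4% of all genes, and 0 passed the test or had an unadjusted limma p under 0.05.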
